A study of Mus musculus with 4 samples.

Results

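Collagen chain genes were examined in mouse mammary cells with and without ΔNp63, the amino-terminally truncated isoform of p63, a transcription factor of basal epithelium. The 42 chains were taken by gene symbol from the 54393 gene identifiers of the count table, all of which matched GENCODE M21. They comprise 11 fibrillar, 9 network-forming, 9 fibril-associated and 6 beaded-filament chains, 2 multiplexins, 3 transmembrane collagens and 2 others. Col7a1 and Col17a1, the collagens of the epithelial anchoring complex, are not among them. There were 4 libraries, with 1 per genotype at each time point, so n = 2 per genotype. The genotype is labelled WT or Dnp63 cKO, a conditional knockout. The protocol text names iK14-Cre; DNp63 f/f glands and tamoxifen (1.5 mg/ml) for every library, those labelled WT included, so what set the WT animals apart (no Cre, no floxed allele or another difference) is not stated. iK14-Cre is an inducible Cre driven by the keratin 14 promoter, which is active in basal epithelial cells. Tamoxifen was given at 4 weeks of age, and cells were collected 10 days or 5 weeks afterwards. Whether animals were pooled is not stated. The labels also name gland ages of 5 and 35 weeks. The second cannot be reached from these times, so age was not used.

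Collagens are built from 3 chains wound into a triple helix. Fibrillar collagens assemble into the banded fibres that give connective tissue its strength, and fibroblasts make most of them. Type IV collagen forms the sheet-like network of basement membranes, on which mammary basal cells sit. Fibril-associated collagens decorate the surface of fibres, and type VI collagen forms beaded filaments between fibres and cells. Several collagens need more than 1 gene product in the same molecule, so the levels of partner chains can be compared.

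The deposited counts summed to between 31714181 and 79122250 per library. Levels are given below as CPM, counts scaled to library size after TMM normalization, and paired values are in the order WT then cKO. Trp63, the targeted gene, had 46.8 and 12.8 CPM at 10 days and 161 and 25.5 CPM at 5 weeks. The source is labelled as mammary epithelial cells, from which cells bearing CD45, CD31 or Ter119 were removed, and the list of fibroblast markers was nonetheless detected in full. Summed levels per library were 7382 to 9390 CPM for 10 luminal markers, 10236 to 23250 CPM for 15 fibroblast markers and 106 to 266 CPM for 10 leukocyte markers. The 10 basal markers, Krt5 and Krt14 among them, summed to 5920 and 2306 CPM at 10 days and to 16692 and 2454 CPM at 5 weeks. Krt5 (7826 CPM) and Krt14 (6509.7 CPM) made up most of the WT sum at 5 weeks. All 10 were lower in cKO at 10 days, against 49.8% of all genes tested. At 5 weeks, however, 6 of 10 (Acta2, Cnn1, Lgr6, Myh11, Mylk and Oxtr) were higher in cKO, beside 49.1% of all genes, with a list median log2 ratio of 0.10. Adipocyte markers (10 genes) were highest in the cKO library at 10 days, at 990.6 CPM, against 122 to 310.4 CPM in the other libraries. In such bulk samples, fewer cells of a type and less RNA per cell cannot be told apart.

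At 10 days most collagen chains were lower in cKO than in WT, and at 5 weeks most were higher. The 42 chains together summed to 45451 and 27843 CPM at 10 days and to 27072 and 56912 CPM at 5 weeks. The cKO sum was thus 0.613 times the WT sum at the earlier time and 2.10 times at the later. WT at 10 days and cKO at 5 weeks were the high libraries, and the remaining libraries were close to each other. Without Col1a1, Col1a2 and Col3a1, which dominate the sum, the same ratios were 0.698 and 1.57.

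Of the 42 chains, 41 passed the filter on low counts, the exception being Col10a1, a chain of growth plate cartilage with 0 to 2 counts per library. At 10 days 30 of the 41 had a ratio of cKO to WT below 1, against 49.8% of all genes tested, and 13 were at least 2-fold lower, against 7.45%. At least 2-fold higher were 4 (7.89% of all genes): Col8a1, Col19a1, Col22a1 and Col28a1. At 5 weeks 37 of 41 had a ratio above 1 (49.1% of all genes), 8 were at least 2-fold higher (7.78%) and 1, Col6a4, was at least 2-fold lower (6.54%). In all, 26 of 41 were lower at 10 days and higher at 5 weeks, against 19.4% of all genes, and 0 had the opposite order, against 20.4%. At both times 4 were lower (30.4% of all genes) and 11 higher (29.7%). The ratio was at least 2-fold more at 5 weeks than at 10 days for 22 chains (10.4% of all genes) and at least 2-fold less for 3 (9.11%). The median log2 ratio of the 41 was -0.66 at 10 days, with its middle values between -1.08 and 0.12, and at 5 weeks 0.59, between 0.36 and 0.92 (quartiles). The medians of all 18917 tested genes were 0.00 and -0.01. These ratios rest on 1 library per genotype and time point and have no replicate check.

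**Figure D1:**
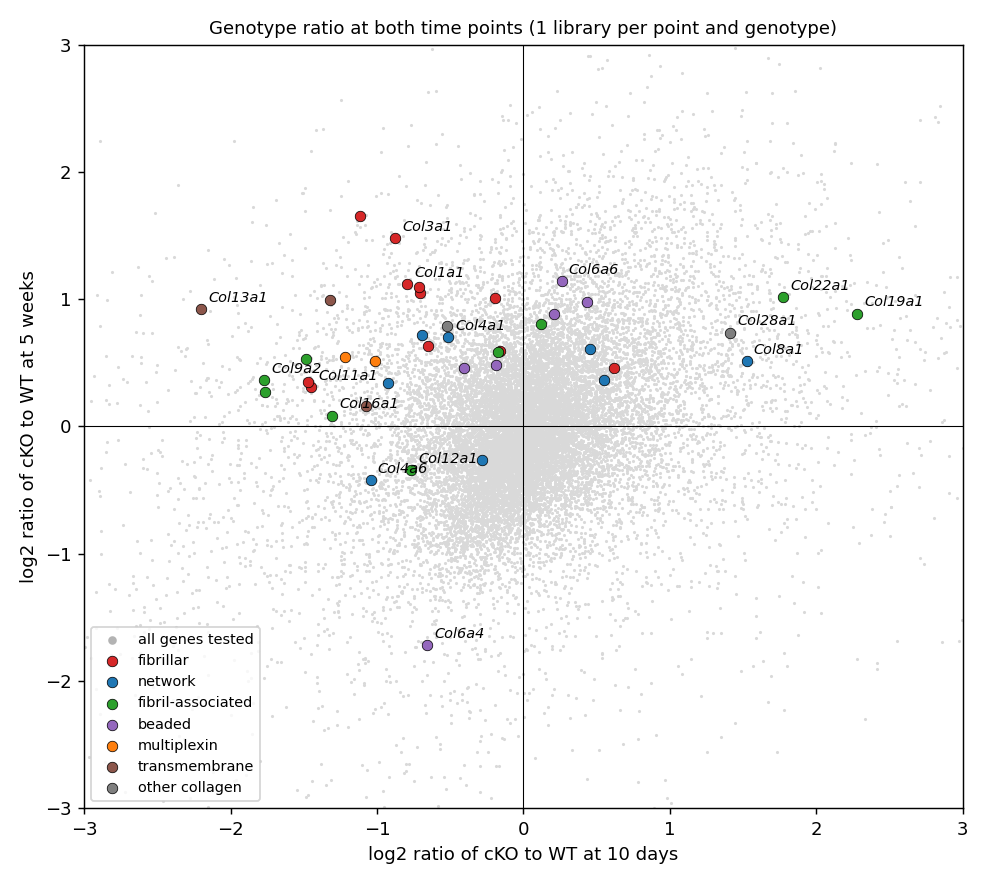
Log2 ratio of cKO to WT at 10 days (horizontal axis) against 5 weeks (vertical axis) for the 41 tested collagen chain genes, coloured by class, over all tested genes in grey, of which 432 lie outside the axes. The upper left field, lower at 10 days and higher at 5 weeks, holds 26 of the 41 chains and the lower right field holds 0.

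No chain passed the test of genotype with time point held constant. That test averages the ratios of both time points and counts their difference as spread. It therefore cannot detect a ratio that turns between them, as it did in 26 of 41 chains, and draws no line on that pattern. In edgeR's quasi-likelihood test 0 of 41 had an adjusted p under 0.05, against 0.0581% of all genes (0.0529% lower and 0.00529% higher in cKO). Without adjustment, 6 chains had a p under 0.05 in edgeR, a share of 14.6% against 11.6% of all genes, of which 3 were lower and 3 higher in cKO (5.8% of all genes in each direction). DESeq2 called 0 of the 41 (2.71% of all genes) and limma-voom 0 (0.153%). Both cKO libraries lay below both WT libraries for 3 chains, Col4a6, Col6a4 and Col12a1 (23.3% of all genes), and above both for 8, Col6a3, Col6a5, Col6a6, Col8a1, Col14a1, Col19a1, Col22a1 and Col28a1 (22.6%). The median log2 fold change of the 41 was 0.14, and in fits with 1 library left out and no time term its extremes were -0.36 (cKO at 5 weeks left out) and 0.43 (WT at 10 days left out). For the time term, 0 of 41 chains passed (0.0634% of all genes) and 3 had an unadjusted p under 0.05 in edgeR (5.35% of all genes): Col4a4, Col4a6 and Col12a1. Within WT the level at 5 weeks was below that at 10 days, and within cKO above it, for 26 of 41 chains, against 23% of all genes. With 1 library per genotype and time point, the fit had 1 residual degree of freedom, the change of the genotype ratio between time points. These p-values therefore set each term against that change, pooled with that of other genes, and not against a spread between replicates. That each library is a separate animal is not stated, so part of any difference may be technical.

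**Figure D2:**
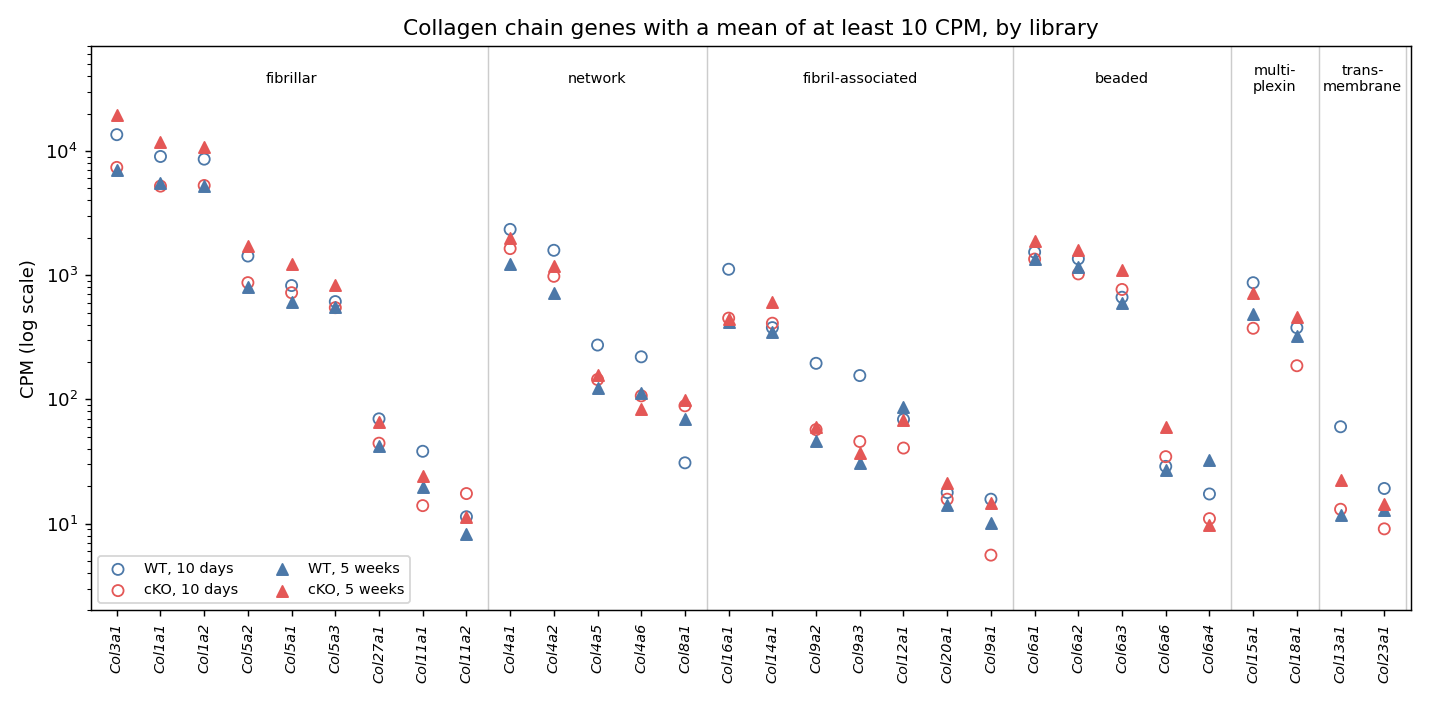
CPM on a log scale (vertical axis) of the 30 chains with a mean of at least 10 CPM, in each of the 4 libraries, ordered by class and mean level. Open symbols are 10 days and filled symbols 5 weeks. Among the 6 most abundant fibrillar chains the cKO library at 5 weeks is the highest and the WT library at 10 days the next, while Col16a1, Col9a2, Col9a3 and Col13a1 have a single high point, WT at 10 days.

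Fibrillar chains were lower in cKO at 10 days and higher at 5 weeks, with 1 exception. Of 11, 10 had this order, against 19.4% of all genes, with a median log2 ratio of -0.71 and then 1.01. Col3a1 (ENSMUSG00000026043.18, GRCm38 chromosome 1, 45311538 to 45349706), the single chain of type III collagen of pliable tissues, had 13514 and 7365 CPM at 10 days and 7054 and 19638 CPM at 5 weeks. The groups overlapped, since each genotype had one high and one low library. Its log2 fold change over both time points was 0.30 (SE 0.758, n = 2 per genotype, edgeR adjusted p = 0.914), while its log2 ratios within the time points were -0.88 and 1.48. Col1a1 (chromosome 11, 94936224 to 94953042) and Col1a2 (chromosome 6, 4504814 to 4541544) encode the chains of type I collagen, the main protein of stromal fibres. Col1a1 had 9018 and 5205 CPM at 10 days, then 5486 and 11889 CPM. Col1a2 was at 8582 and 5267 CPM, then at 5229 and 10795 CPM. In both chains WT was the higher library at 10 days and cKO at 5 weeks, and their log2 fold changes over both times were 0.16 (SE 0.638) and 0.17 (SE 0.605).

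Type V collagen sits inside type I fibres and limits their width. Its chain Col5a2 had 1425 and 869.8 CPM at 10 days and 806 and 1724 CPM at 5 weeks. Col5a1 was at 825 and 722 CPM, then 608 and 1225 CPM, and Col5a3 at 612 and 547 CPM, then 555 and 835 CPM. The 10-day gap of Col5a1 and Col5a3 was thus small (log2 ratios -0.19 and -0.16) beside that of Col5a2 (-0.71), and all 3 were higher in cKO at 5 weeks (1.01, 0.59 and 1.10). Col27a1, a fibrillar chain best known from cartilage, stood at 69.7 and 44.4 CPM, then 42.5 and 66.0 CPM. Col11a1, a partner of type V chains in several tissues, was highest in WT at 10 days (38.2 and 13.9 CPM, then 19.6 and 24.2 CPM). Col11a2 was the exception of the class, higher in cKO at both times (11.4 and 17.4 CPM, then 8.21 and 11.3 CPM), with overlapping groups (log2 fold change 0.54, SE 0.267, edgeR adjusted p = 0.51). Col24a1 (0.693 to 2.53 CPM) and Col2a1 (0.455 to 1.53 CPM), the chain of cartilage fibres, were low in each library.

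Markers of fibroblasts did not follow the fibrillar chains at 10 days. The 11 fibrillar chains summed to 34098 and 20053 CPM at 10 days and to 19811 and 46211 CPM at 5 weeks. The 15 fibroblast markers summed to 10236 and 23250 CPM, then 16150 and 21541 CPM, so cKO was higher at both times, by 2.27 and 1.33 times. The list's median log2 ratios were 0.33 at 10 days and 0.67 at 5 weeks. The median was thus larger at 5 weeks, and the ratio of sums at 10 days. Of the 15, 11 were higher in cKO at both times (29.7% of all genes). Lower at 10 days and higher at 5 weeks were 3, a share near the 19.4% of all genes. The collagen-binding proteoglycan gene Dcn had 2643 and 5298 CPM at 10 days and 3115 and 4944 CPM at 5 weeks. Gsn, an actin-severing protein gene and the largest part of the sum, had 4235 and 13619.9 CPM, then 9363 and 10361 CPM. The ratio of summed fibrillar chains to summed fibroblast markers was 3.33 and 0.862 at 10 days and 1.23 and 2.15 at 5 weeks. It rests on the same marker sums, in which Gsn weighs most. None of the 15 markers was at 0 in any library. The part of the cell mix in the collagen values was not tested.

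**Figure D3:**
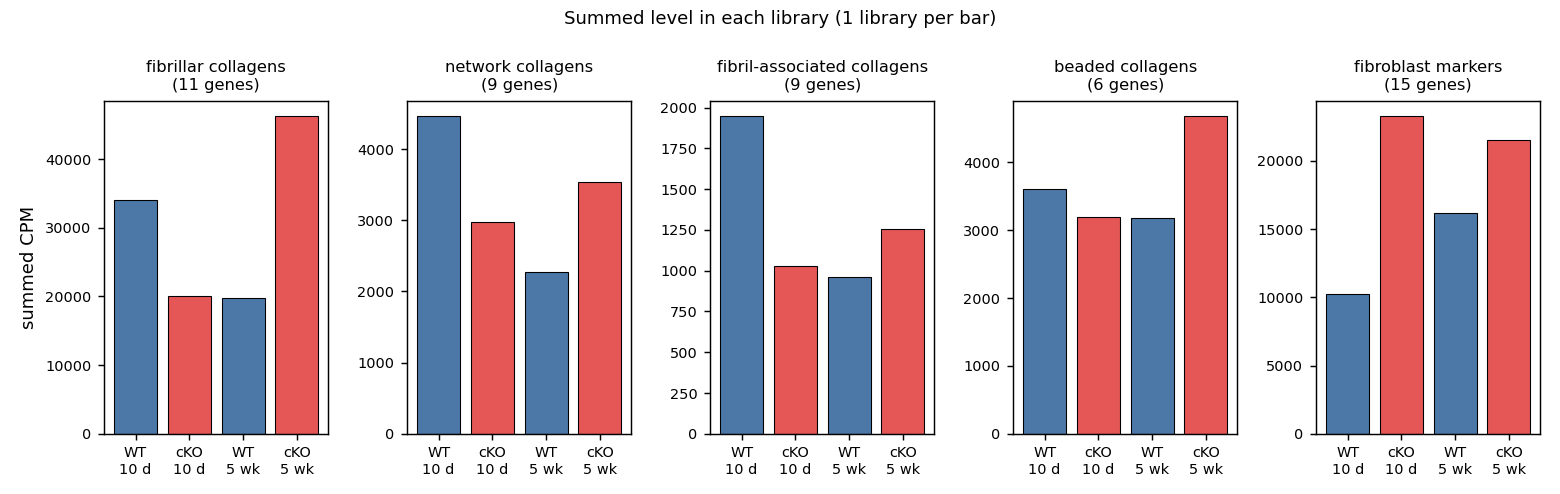
Summed CPM (vertical axes, each from 0) of 4 collagen classes and of the fibroblast markers, with 1 bar per library (blue WT, red cKO). Fibrillar chains peak in WT at 10 days and cKO at 5 weeks, at 34098 and 46211 CPM, whereas fibroblast markers are highest in both cKO libraries, at 23250 and 21541 CPM.

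Upstream sequence is shown for the fibrillar chains Col3a1 and Col5a1, both lower in cKO at 10 days and higher at 5 weeks, to set side by side the promoters of chains that assemble into the same fibres. The windows cover the 250 bases before the RefSeq start (GRCm38.p6, plus strand), at chr1:45311288-45311537 for Col3a1 and chr2:27886175-27886424 for Col5a1. Capitals mark matches to the motif TATAA (read as TTATA on the opposite strand), the motif CCAAT (opposite strand ATTGG) and the motif GGGCGG (opposite strand CCGCCC).
Col3a1: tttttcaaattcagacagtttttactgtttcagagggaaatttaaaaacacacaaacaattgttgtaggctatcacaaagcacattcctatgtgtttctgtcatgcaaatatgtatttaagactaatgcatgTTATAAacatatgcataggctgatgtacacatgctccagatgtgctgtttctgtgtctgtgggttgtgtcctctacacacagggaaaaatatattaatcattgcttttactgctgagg
Col5a1: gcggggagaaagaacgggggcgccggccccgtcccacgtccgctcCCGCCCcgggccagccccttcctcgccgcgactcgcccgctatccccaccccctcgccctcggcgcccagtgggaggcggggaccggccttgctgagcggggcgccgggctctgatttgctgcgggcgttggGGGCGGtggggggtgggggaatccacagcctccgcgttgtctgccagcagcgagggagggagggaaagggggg
In Col3a1 a TTATA beginning 118 bases before the start overlaps the TATAA that begins at 117, in a window of 35.2% G and C. Col5a1 has CCGCCC at 205 and GGGCGG at 73 bases before the start, and 76.4% G and C. Across all 32851 promoter windows, TATAA occurred on either strand in 22.8%, CCAAT in 33.8% and GGGCGG in 32.7%, with a median of 52.4% G and C. Among the 36 windows of 33 matched chains the shares were 16.7%, 30.6% and 58.3%, with a median of 59.4% G and C. A match is a run of letters and not a shown binding site.

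Network-forming chains had mixed directions. Col4a1 and Col4a2, which build the type IV collagen of nearly every basement membrane, were lower in cKO at 10 days and higher at 5 weeks. Col4a1 (chromosome 8, 11198423 to 11312826) had 2334 and 1635 CPM, then 1225 and 1995 CPM. Col4a2 (chromosome 8, 11312805 to 11449287) stood at 1584 and 978 CPM, then at 716 and 1177 CPM. WT at 10 days was the high library and WT at 5 weeks the low one, with both cKO libraries between. The pair lies head to head and the annotated genes overlap by 22 bases, and reads there cannot be assigned without strand.

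Col4a5 and Col4a6 make a second type IV network, on the X chromosome, which glandular basement membranes also hold. Col4a5 had 274 and 144 CPM at 10 days and 123 and 156 CPM at 5 weeks. Col4a6 (X, 141165403 to 141474076) was at 220.0 and 107 CPM, then at 112 and 83.9 CPM, so both cKO libraries lay below both WT libraries. edgeR gave a log2 fold change of -0.73 (SE 0.239), an unadjusted p of 0.0242 and an adjusted p of 0.37. The neighbours are head to head with 1308 bases between them, and at 5 weeks their log2 ratios had opposite signs, 0.34 for Col4a5 and -0.42 for Col4a6. Col4a3 and Col4a4, the chains of kidney and lung filters, were scarce (3.66 to 7.63 and 5.23 to 13.2 CPM) and higher in cKO at both times, with log2 ratios of 0.55 and 0.36, and 0.45 and 0.61. They too are head to head, 71 bases apart.

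Type VIII collagen is a short-chain network former of vessel walls and stroma. Col8a1 (chromosome 16, 57624258 to 57754737) had 30.8 and 88.7 CPM at 10 days and 69.6 and 99.5 CPM at 5 weeks. Both cKO libraries were above both WT libraries, and WT at 10 days was the low one. edgeR gave a log2 fold change of 1.02 (SE 0.297), an unadjusted p of 0.018 and an adjusted p of 0.342, which became 0.0023 when genes of low counts were not filtered out. Without that filter many more genes were called over the whole series, so the lower value was not particular to Col8a1. Col8a2, its relative, was lower in cKO at each time, with overlapping groups, at 7.84 and 6.42 CPM, then 5.97 and 4.98 CPM. Markers of pericytes and vascular smooth muscle (10 genes), cells of vessel walls that the sort leaves in, summed to between 958 and 1131 CPM per library. Much of that sum was Myh11, also a basal marker (674 and 456 CPM, then 438 and 484 CPM). The other 9 were higher in cKO at 10 days, when 49.8% of all genes were lower. Kcnj8, Abcc9 and Des were so by at least 2-fold (7.89% of all genes). For 6 of 10 both cKO libraries lay above both WT libraries as for Col8a1 (22.6% of all genes). Over the list, median log2 ratios of 0.40 and 0.29 were found at the earlier and later time. Medians above 0 at both times were not particular to this list. They were 0.40 and 0.59 for endothelial, 0.33 and 0.67 for fibroblast and 0.63 and 1.47 for leukocyte markers, among other lists. The part of any of these cells in the Col8a1 values was not tested.

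The windows before Col4a6 (chrX:141474077-141474326) and Col8a1 (chr16:57754738-57754987), both on the minus strand, are shown as those of the network chains whose groups did not overlap, one lower and one higher in cKO.
Col4a6: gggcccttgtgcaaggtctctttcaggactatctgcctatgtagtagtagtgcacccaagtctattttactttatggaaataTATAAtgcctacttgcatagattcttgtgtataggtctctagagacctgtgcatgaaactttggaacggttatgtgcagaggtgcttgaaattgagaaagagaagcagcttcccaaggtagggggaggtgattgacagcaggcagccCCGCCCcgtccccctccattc
Col8a1: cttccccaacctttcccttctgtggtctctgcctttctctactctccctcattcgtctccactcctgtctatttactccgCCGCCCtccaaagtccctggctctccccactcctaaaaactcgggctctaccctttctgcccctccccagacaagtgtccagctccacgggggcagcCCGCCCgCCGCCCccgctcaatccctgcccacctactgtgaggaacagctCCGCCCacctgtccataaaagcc
Col4a6 holds TATAA 168 bases and CCGCCC 21 bases before the start, and Col8a1 holds CCGCCC at 170, 73, 66 and 23 bases before it, on the strand as printed. CCAAT was not found in either window on either strand.

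Several fibril-associated chains had 1 library far above the rest. Of 9, 6 were lower in cKO at 10 days (49.8% of all genes) and 8 higher at 5 weeks (49.1%; median log2 ratios -0.77 and 0.53). Col16a1, which links fibres to cells, had 1115 and 450.4 CPM, then 419.9 and 445 CPM. Col9a2 was at 195 and 57.1 CPM, then 46.1 and 59.4 CPM, and Col9a3 at 155 and 45.8 CPM, then 30.5 and 36.9 CPM. In all 3 genes WT at 10 days stood alone, from 2.47 to 3.41 times the cKO library of the same time, and the other 3 libraries were close together. Without that library the log2 fold changes of Col16a1, Col9a2 and Col9a3 went from -0.61, -0.70 and -0.75 to 0.09, 0.34 and 0.44. Col9a1, the other type IX chain, was scarcer, at 15.7 and 5.57 CPM, then 10.1 and 14.6 CPM.

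Type IX collagen is best known from cartilage, where it coats type II fibres. Of 10 markers of cartilage and bone, Matn1 and Ibsp were at 0 in each library and 5 passed the filter, and the list's sum of 321 to 364 CPM was mostly Sox9, which glandular epithelium also expresses (284, 336, 332 and 319.6 CPM in WT and cKO at 10 days and WT and cKO at 5 weeks). Of 8 Schwann cell and nerve markers, Sox10, which mammary epithelium also expresses, had its single high value in WT at 10 days (189 and 53.1 CPM, then 60.8 and 48.8 CPM). The list did not share this shape: Mbp and Ngfr were highest in WT at 5 weeks, and Pmp22 and S100b lowest in WT at 10 days. Among the basal markers, Lgr6 had a single high value in WT at 10 days (133 and 53.3 CPM, then 49.4 and 53.3 CPM). Acta2, Cnn1, Myh11, Mylk and Oxtr were also highest in that library, while Krt5, Krt14, Krt17 and Trp63 were highest in WT at 5 weeks. The part of all these cells in the type IX values was not tested.

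The other fibril-associated chains did not share this shape. Col14a1, which binds fibres of loose stroma, was higher in both cKO libraries (378 and 410.1 CPM, then 350.2 and 610.4 CPM; log2 fold change 0.46, SE 0.289, edgeR adjusted p = 0.602). Col12a1, found in tissues under tension, was lower in both, at 69.0 and 40.5 CPM, then 86.6 and 68.2 CPM. Its log2 fold change was -0.56 (SE 0.209) with an unadjusted p of 0.0406 and an adjusted p of 0.409 in edgeR. Col20a1 stood at 17.8 and 15.7 CPM, then 14.2 and 21.3 CPM. Col22a1 and Col19a1, chains of junctions such as that of muscle and tendon and of nerve, were near the floor. Col22a1 had 10 counts in WT and 35 in cKO at 10 days and 34 and 32 counts at 5 weeks in libraries of unequal depth (log2 fold change 1.47, SE 0.527, edgeR adjusted p = 0.392). Col19a1 had 1 and 10 counts at 10 days, a ratio of 10.8 with an exact 95% counting interval of 1.54 to 471, and 18 and 16 counts at 5 weeks.

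Beaded-filament chains had a median ratio close to 1 at 10 days. Their median log2 ratio was 0.01 at that time, though -0.03 when scaled by total counts and -0.0018 with upper-quartile factors, and 0.68 at 5 weeks. Col6a1, at 1532 and 1347 CPM and then 1353 and 1887 CPM, and Col6a2, at 1354 and 1023 CPM and then 1171 and 1606 CPM, are the short chains of type VI collagen. Col6a3, the long chain that completes the classical molecule, was at 664 and 767 CPM, then 601 and 1108 CPM, so both cKO libraries were above both WT libraries (log2 fold change 0.55, SE 0.318, edgeR adjusted p = 0.573). The classical molecule holds all 3 chains, of which Col6a1 and Col6a2 had log2 ratios of -0.19 and -0.40 at 10 days and Col6a3 of 0.21.

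The alternative long chains Col6a4, Col6a5 and Col6a6 lie in a row on chromosome 9, in the same direction and 27.9 and 28.8 kb apart, yet they did not share a direction. Col6a4 (105989454 to 106096783) had 17.3 and 10.95 CPM at 10 days and 32.3 and 9.81 CPM at 5 weeks. Both cKO libraries were below both WT libraries, and edgeR gave a log2 fold change of -1.19 (SE 0.335), an unadjusted p of 0.0142 and an adjusted p of 0.325, or 0.00389 without the filter on low counts. The unfiltered fit called many more genes over the whole series, so the lower value was not particular to Col6a4. Col6a6 (105687809 to 105828160) was higher in both cKO libraries, at 28.9 and 34.6 CPM, then 27.2 and 60.1 CPM (log2 fold change 0.70, SE 0.282, adjusted p = 0.432 in edgeR). Col6a5, between them, had 6.39 and 8.63 CPM, then 3.53 and 6.98 CPM. Of the 10 basal markers, Krt5, Krt14, Krt17 and Trp63 had the same features as Col6a4, lower in both cKO libraries and highest in WT at 5 weeks, while the other 6 were highest in WT at 10 days. Their part in the Col6a4 values was not tested.

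The remaining chains mostly had the order of the fibrillar class. The multiplexins carry the anti-angiogenic fragments restin and endostatin and sit at basement membranes. Col15a1 had 869 and 373 CPM, then 489 and 712 CPM, and Col18a1 377 and 187 CPM, then 324 and 461 CPM. Both were over 2-fold lower in cKO at the first time and higher at the second (log2 ratios 0.54 and 0.51). Col13a1, a transmembrane collagen of cell adhesions, was highest in WT at 10 days (60.2 and 13.0 CPM, then 11.8 and 22.4 CPM). It had the largest change of ratio between time points of the 41 chains, 3.12 on the log2 scale. Col23a1 (19.2 and 9.07 CPM, then 12.9 and 14.5 CPM) and Col25a1 (13.2 and 5.26 CPM, then 2.33 and 4.68 CPM), the other transmembrane collagens, also had their highest value in WT at 10 days. Col28a1, a chain of nerve sheaths, was instead higher in both cKO libraries, at 4.18 and 11.2 CPM, then 7.0 and 11.7 CPM. For Col28a1 edgeR gave 1.07 as the log2 fold change (SE 0.33), with an unadjusted p of 0.0194 and an adjusted p of 0.349. Col26a1 stood at 2.21 to 4.01 CPM.

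The chain pairs of types I, IV (Col4a1 and Col4a2) and VI (Col6a1 and Col6a2) had narrower ratios to each other than levels across the libraries. Per kb of exon, Col1a1 to Col1a2 was 1.99 and 1.87 at 10 days and 1.99 and 2.09 at 5 weeks, a range of 1.11-fold, where the Col1a1 level ranged 2.28-fold. The value itself depends on the length used: with the longest transcript in place of all exons it was 0.891 to 0.993. Col4a1 to Col4a2 ranged 1.16-fold and Col6a1 to Col6a2 1.16-fold over the libraries, and Col9a2 to Col9a3 1.29-fold where Col9a2 alone ranged 4.23-fold. A narrow ratio was not particular to chains of 1 molecule. Col3a1 to Col1a1, from types III and I, ranged 1.28-fold, where the Col3a1 level ranged 2.78-fold and Col1a1 2.28-fold. Col4a3 to Col4a4 ranged 1.29-fold (levels 2.09-fold and 2.52-fold) and Col5a1 to Col5a2 1.43-fold (levels 2.01-fold and 2.14-fold). The pairs named next had wider ranges. Col4a5 to Col4a6 was 1.48, 1.61, 1.30 and 2.20 in the same order of libraries, highest in cKO at 5 weeks. Col9a1 to Col9a2 ranged 3.06-fold and Col8a1 to Col8a2 5.08-fold, from 2.25 in WT at 10 days to 11.5 in cKO at 5 weeks. By mean level per kb, Col3a1 (1212 CPM per kb), Col1a1 (1204) and Col1a2 (601) led the 42 chains, followed by Col6a1 (349) and Col4a1 (241), but with the longest transcript as length Col1a2 (1396) stood above Col1a1 (1332).

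Genes that fold, trim, cross-link and bind collagen were counted from lists. In edgeR 0 of 22 folding, 7 propeptide, 5 cross-linking and 11 receptor genes tested had an adjusted p under 0.05, and 1, 5, 1 and 5 had an unadjusted p below that level, against 11.6% of all genes, so that the folding list lay below the share of all genes. DESeq2 called Pcolce2, Lox, Ddr2 and Itga11 (2.71% of all genes). Enzymes and chaperones of chain folding in the endoplasmic reticulum (22 genes) had median log2 ratios of -0.14 at 10 days and 0.34 at 5 weeks, with 11 lower and then higher (19.4% of all genes). The collagen chaperone gene Serpinh1 stood at 583 and 584 CPM at 10 days and at 556 and 982 CPM at 5 weeks, with log2 ratios of 0.00 and 0.82 beside -0.79 and 1.12 for Col1a1. P4hb, the shared subunit of prolyl hydroxylase, ranged little, at 611 and 609.6 CPM and then 604 and 624 CPM. Ppib, a proline isomerase gene, stood at 239 and 207 CPM, then 249 and 237 CPM, and the glycosyltransferase gene Colgalt1 at 211 and 145 CPM, then 138 and 139 CPM.

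Most tested genes of propeptide removal and cross-linking, which act outside the cell, followed another order. Of 7 tested genes of propeptide removal 6 were higher at both times (29.7% of all genes) and 6 had both cKO libraries above both WT libraries (22.6%). Adamts3 was the exception and had the order of the fibrillar chains, at 20.6 and 8.34 CPM, then 8.64 and 12.7 CPM. An unadjusted edgeR p under 0.05 was reached by 5 (11.6% of all genes). Pcolce2, an enhancer of procollagen cleavage, was at 41.0 and 127 CPM, then 88.0 and 155 CPM (log2 fold change 1.22, SE 0.264, edgeR adjusted p = 0.25), and its relative Pcolce at 134 and 247 CPM, then 214 and 307 CPM. The procollagen proteinases Bmp1 (276 and 323 CPM, then 283 and 380.4 CPM) and Adamts2 (193 and 259 CPM, then 187 and 366 CPM) had smaller ratios at 10 days than at 5 weeks.

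Of 5 cross-linking genes, 4 were higher in both cKO libraries than in both WT libraries (22.6% of all genes). Lox, lysyl oxidase, stood at 162 and 292 CPM, then 115 and 242 CPM (log2 fold change 0.96, SE 0.219, edgeR adjusted p = 0.26). Loxl1 was the exception and had the order of the fibrillar chains, at 342 and 215 CPM, then 199 and 371 CPM, while Loxl2 stood at 202 and 229.6 CPM, then 206 and 403 CPM, and Loxl3 at 44.5 and 48.4 CPM, then 38.6 and 52.0 CPM. Among 11 collagen receptors, 5 were higher in both cKO libraries (22.6% of all genes) and 2 lower (23.3%), the latter a share near that of all genes. Ddr2, the fibrillar collagen receptor of mesenchymal cells, was at 123 and 266 CPM, then 192 and 449 CPM (log2 fold change 1.17, SE 0.226, edgeR adjusted p = 0.22). Ddr1, its epithelial counterpart, was at 194 and 192 CPM, then 243 and 144 CPM, the anthrax toxin receptor gene Antxr1, which binds collagen, at 238 and 350.2 CPM, then 286 and 510.1 CPM, and Itgb1, the common integrin subunit, at 441 and 399 CPM, then 409.8 and 496 CPM. The summed fibroblast markers were higher in cKO at both times as well (2.27 and 1.33 times WT, with list median log2 ratios of 0.33 and 0.67). Their part in these values was not tested.

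**Figure D4:**
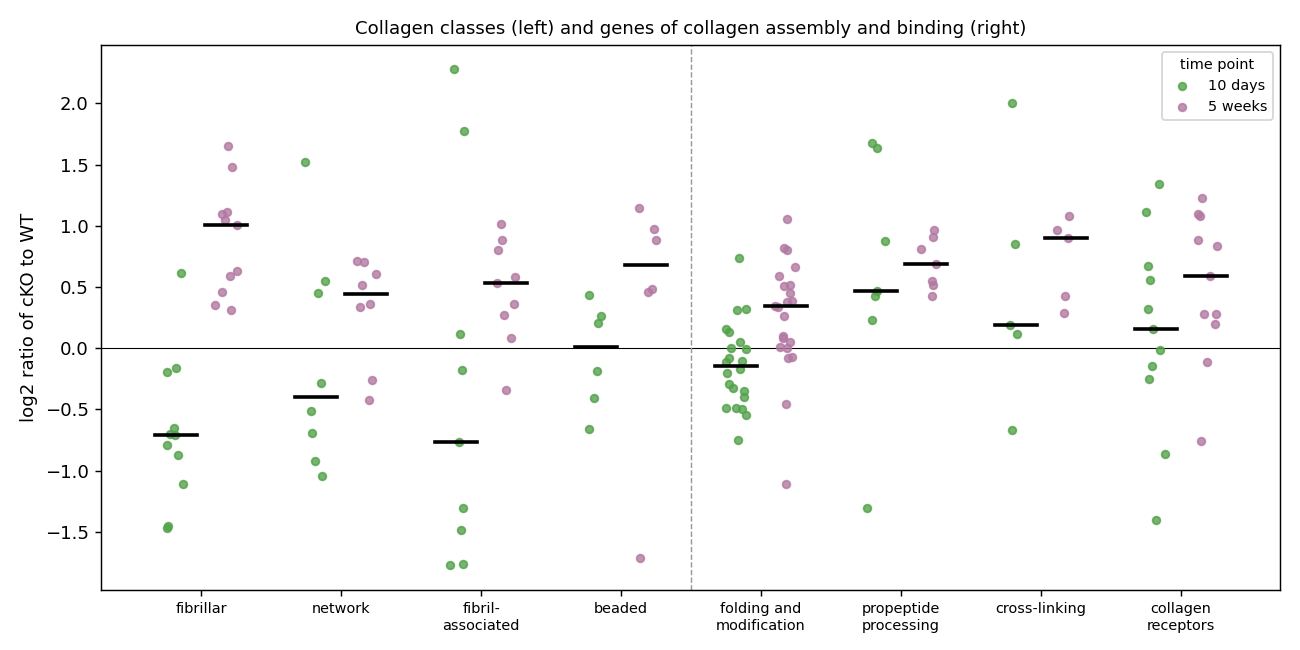
Log2 ratio of cKO to WT (vertical axis) at 10 days (green) and 5 weeks (purple) for each tested gene of 4 collagen classes and of 4 lists of collagen assembly and binding genes, with bars at the medians. Fibrillar chains have medians of -0.71 and 1.01, while propeptide processing genes have medians above 0 at both times (0.47 and 0.69).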

How the data were processed

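Whole-number estimated counts for 54393 gene identifiers, 1 column per library, are what the authors deposited, with 0 columns of other samples. The submitters' processing notes name Salmon (no version) and GRCm38, with no role for either. Annotation and strand setting are not given in the sources used here. Symbols and positions were taken from GENCODE M21, and a symbol found on several identifiers (105 symbols) was read from that with most counts. Genes were kept by filterByExpr (minimum count 10), which left 18917. The main test was edgeR 4.0.16 in R 4.3.3, the quasi-likelihood fit on TMM factors with a time term beside genotype and Benjamini-Hochberg adjustment over all genes. It was also run on simulated data with genotype effects equal at both times, which does not cover ratios that turn between them. Time point serves as the block, and no other pairing is given. Ratios within a time point carry no test. DESeq2 1.42.0, limma 3.58.1 (voom), other scalings, no filter and each library left out were alternatives. Those for the time term were added after seeing the data. Members, lists and rules were chosen with earlier results of these data known. By rule, values were given by library for chains of at least 10 mean CPM, with partner chains of the same molecule, for the 4 most abundant genes of a pathway list and for the 2 of a marker list. Named outside it, after their values were seen, were Col2a1, Col19a1, Col22a1, Col24a1, Col25a1, Col26a1, Col28a1, Adamts3, Itga11 and every marker gene beyond the 2 most abundant of its list. The interval on a ratio of counts covers counting error only. Promoter windows came from RefSeq (GRCm38.p6).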

Additional observations from a re-analysis of the deposited data

Results flagged for a closer look

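The ratio of cKO to WT lay below 1 at 10 days and above 1 at 5 weeks for the medians of the fibrillar, network and fibril-associated classes, for those of the 2 multiplexins (-1.12 and 0.53) and 3 transmembrane collagens (-1.32 and 0.92), and for 22 abundant chains. Each ratio is that of 1 library pair, and the difference between time points was not tested, because genotype by time leaves no residual. On the log2 scale, 5 weeks minus 10 days, the fibrillar median differed by 1.72, the network median by 0.84 and the fibril-associated median by 1.30. These are differences of separate medians. The median of the per-gene differences was 1.76 for fibrillar chains but 0.39 for network and 0.76 for fibril-associated chains, and 3 of 8 network and 5 of 9 fibril-associated chains went from below to above 1.

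Among fibrillar chains the same difference was 1.91 for Col1a1, 1.75 for Col1a2, 2.35 for Col3a1, 1.20 for Col5a1, 1.81 for Col5a2, 0.75 for Col5a3, 1.76 for Col11a1 and 1.28 for Col27a1. In type IV collagen it was 1.22 for Col4a1, 1.41 for Col4a2 and 1.26 for Col4a5. Fibril-associated chains gave 2.02 for Col9a1, 2.14 for Col9a2, 2.04 for Col9a3, 1.39 for Col16a1 and 0.76 for Col20a1. The short chains of type VI collagen gave 0.67 for Col6a1 and 0.86 for Col6a2. Multiplexins and transmembrane collagens gave 1.76 for Col15a1, 1.53 for Col18a1, 3.12 for Col13a1 and 1.24 for Col23a1.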

How the results depend on the processing

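Over all genes 11 passed edgeR's adjusted p of 0.05 for genotype. The count was 5 with DESeq2 size factors, 3 with upper-quartile factors, 513 by DESeq2, 29 by limma-voom, 1235 with no filter and 0 with no replicate block (no time term). With a library left out it ran from 0 to 61: 61 without WT at 10 days, 2 without WT at 5 weeks and 0 without either cKO library. Collagen chains called were 0 throughout, except 2 with no filter: Col8a1 at 1.005 (adjusted p = 0.0023) and Col6a4 at -1.21 (adjusted p = 0.00389). Those 2 are among the 1235 genes of that fit, and the share over all genes in it is not given here. The time term called 12 genes, 192 by DESeq2 and 39 by limma-voom. Col27a1 had the opposite sign with upper-quartile factors (0.022) and limma-voom (0.00089), Col4a2 with limma-voom (-0.0056), no filter (-0.0025) and no replicate block (-0.094), and Col6a2 with limma-voom (-0.012), all log2 fold changes near 0. Signs were compared for 32 chains, the 30 with a mean of at least 10 CPM and Col22a1 and Col28a1. For 20 of these 32 the sign of the log2 fold change turned when 1 library was left out. The turned values were 0.22 to 0.38 for Col27a1, 0.28 for Col4a5, 0.0012 to 0.16 for Col9a1, 0.34 for Col9a2, 0.44 for Col9a3, 0.092 for Col16a1, 0.050 to 0.15 for Col15a1, 0.0026 to 0.38 for Col18a1, 0.59 for Col13a1, -0.50 to -0.075 for Col1a1. They were -0.42 to -0.094 for Col1a2, -0.38 to -0.13 for Col5a2, -0.36 to -0.15 for Col4a1, -0.55 to -0.26 for Col4a2, -0.33 to -0.041 for Col6a2, -0.51 for Col3a1, -0.013 for Col5a1, -0.12 for Col5a3, -0.047 for Col20a1, -0.12 for Col6a1. The median of the chains ran from -0.36 to 0.43. These fits have no time term, so the lone library is assumed to vary like the others, and the cause of each change was not tested. The remaining 12 of the 32 chains had 1 sign in every fit run, and the other chains were not in this comparison. With the longest transcript as length, the median ratio was 0.947 for Col1a1 to Col1a2, 1.64 for Col4a1 to Col4a2 and 1.40 for Col6a1 to Col6a2, against 1.99, 1.49 and 2.21 over all exons. The beaded median log2 ratio at 10 days, 0.01, was -0.0018 with upper-quartile factors and -0.03 with total counts. With 1 library per genotype and time, the number of libraries limits every value.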
